A study of Bos taurus with 22 samples.

Results

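The 44 genes described here make, convert and break down sphingolipids. They were chosen by gene name from a fixed list, divided into synthesis of ceramide and sphingomyelin (13 genes), glycosphingolipids (12), breakdown of sphingomyelin and ceramide (10) and sphingosine phosphate (9). Of the 44, 43 were found among the 27570 genes of the deposited count table, and no row carried the name ASAH2. After a filter on low counts, 40 were tested. CERS3 had 0 counts in every steer, GAL3ST1 had 22 counts over all 22 steers, and ACER1 had 86 counts in 15 steers, so these 3 were not tested.

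Messenger RNA of the jejunal mucosa, scraped from the midpoint of the jejunum, was sequenced from 22 Holstein steers that were about a year old or slightly younger. All steers were infused into the abomasum with uncooked corn starch (3.94 g per kg of body weight daily) for 7 d, together with water or with casein given as sodium caseinate (1.30 g per kg per day), and were injected under the skin with GLP-2 (100 μg per kg per day) or with its vehicle, bovine serum albumin (BSA) in saline. GLP-2 (glucagon-like peptide 2) is an intestinal hormone that promotes growth of the mucosa, and the dose was pharmacological. There were 5 control steers (water and BSA), 5 GLP-2 steers (water and GLP-2), 6 casein steers (casein and BSA) and 6 casein + GLP-2 steers, so no group was free of starch infusion. The question was whether casein, GLP-2 or both together altered mucosal transcripts, and 11 steers given GLP-2 were compared with 11 given BSA, and 12 given casein with 10 given water. Each sample is a separate animal.

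Sphingolipids are built on a long-chain base. Serine palmitoyltransferase joins serine to a fatty acyl chain, ceramide synthases add a second chain, and a desaturase completes ceramide, which is then capped to give sphingomyelin or the first sugar of a glycosphingolipid. In the intestine these lipids are concentrated in the brush border of enterocytes, and dietary sphingomyelin is digested there. Ceramidases release sphingosine from ceramide, kinases turn it into sphingosine phosphate, a signal that lymphocytes and endothelium read, and a lyase takes it out of the pathway.

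Totals ranged from 8809666 to 28447810 counts per steer with a median of 12028560.5. The 16 villus enterocyte markers summed to 19926 to 120920 CPM (TMM-normalized counts at equal sequencing depth) in GLP-2 steers and to 2649.5 to 82352 CPM in BSA steers. Enterocyte RNA was thus present in all steers but in very different amounts. B cell follicle markers summed to 41.88 to 103.3 CPM with GLP-2 and to 61.086 to 2499.8 CPM with BSA. Of 12 follicle markers tested, 11 were downregulated with GLP-2, as were 2 of 4 plasma cell markers, while 2 of 16 enterocyte markers were upregulated and all 16 had a positive fold change. Over all genes tested 5.13% were called higher and 8.37% lower. Of the other lists, 1 of 7 T cell markers and 2 of 6 proliferation markers were lower, 1 of 7 macrophage markers was higher, and none of 4 goblet cell, 7 smooth muscle, 5 stroma and 6 endothelium markers was called. The goblet cell markers MUC2, ZG16 and FCGBP were absent from the table. In a piece of mucosa, fewer cells of a type and less RNA per cell cannot be told apart. A pair of overlapping sets of BSA steers stood apart. The columns of 5 of them (casein replicates 1, 3 and 5 and control replicates 3 and 5) come after the other 17 in the count table, out of numeric order, for which the labels give no reason. Their enterocyte markers summed to 2649.5 to 25408 CPM, against 20623 to 82352 CPM in the other 6 BSA steers. Follicle markers exceeded 1000 CPM in 4 (casein replicate 3 and control replicates 1, 3 and 5). Because no GLP-2 steer is in either set, the injection and these features cannot be told apart, and results are given with and without these steers. Values of RNA integrity per steer were not used here.

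Levels differed widely between members. On the FPKM scale, which accounts for gene length, PLPP2 was highest with a median of 165 over the 22 steers (range 56.2 to 243), followed by CERS2 (median 124, range 56.1 to 192) and PLPP1 (median 103, range 53.9 to 192). The ranges of these 3 neighbours overlapped almost entirely. PLPP1 and PLPP2 are surface phosphatases that act on several lipid phosphates, and CERS2 makes ceramides with very long chains. A further 25 members had medians from 10 to under 100 FPKM, 10 from 1 to under 10 and 5 under 1, among them CERS4 and SPTLC3.

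**Figure D1:**
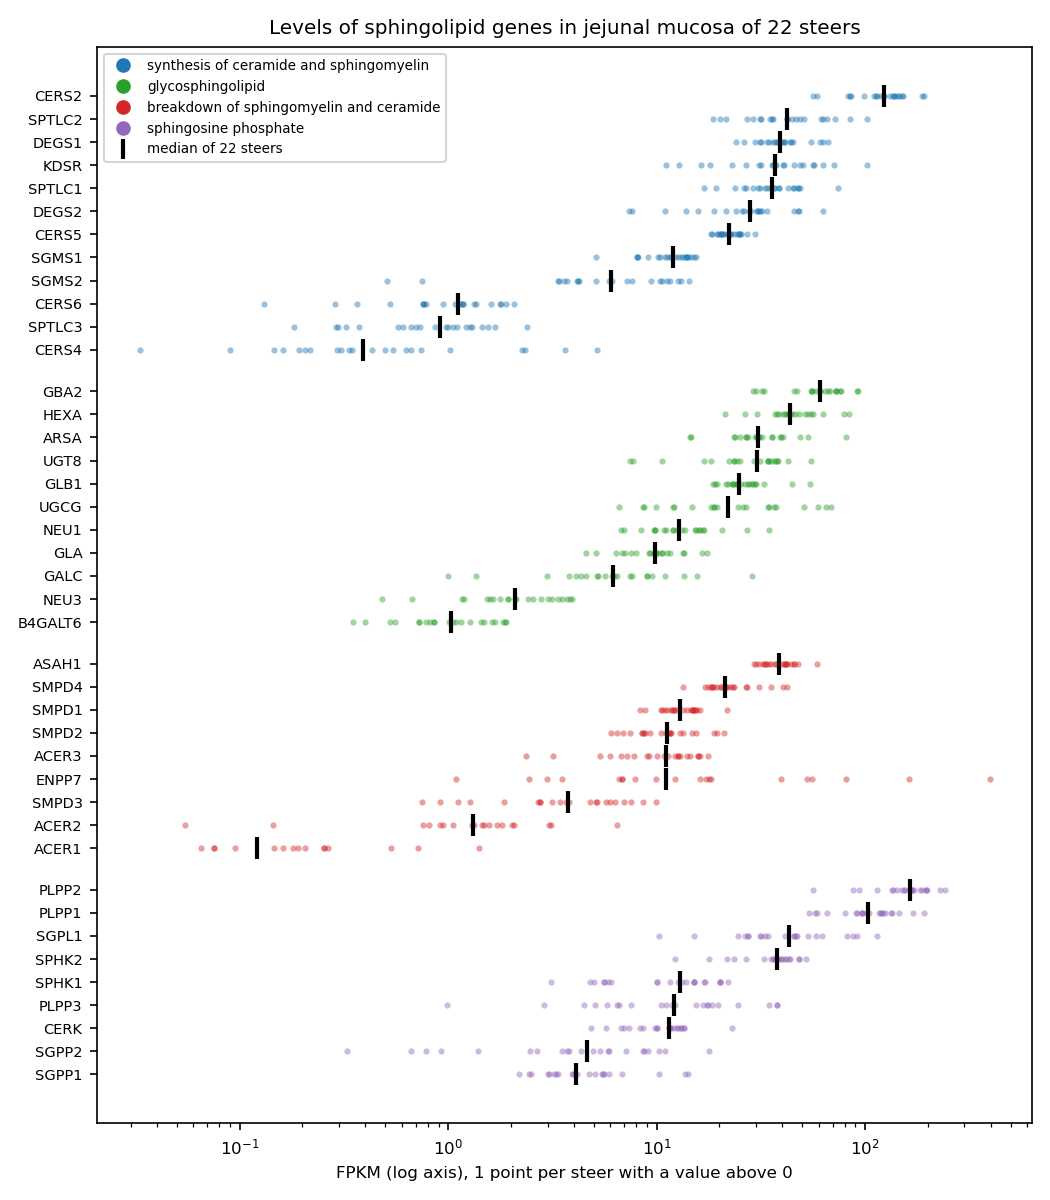
Level of each member with a median above 0 on the FPKM scale (log axis), with 1 point for each steer whose value is above 0 and a black bar at the median of the 22 steers, ordered within each arm. PLPP2, CERS2 and PLPP1 lie at the top, CERS4 and ACER1 at the bottom, and ENPP7 spreads most between steers.

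In several enzyme families 1 or 2 members held most of the FPKM. CERS2 accounted for a median of 84.3% of the summed ceramide synthase FPKM of a steer and CERS5 for 14.4%, whereas CERS4 and CERS6 had 0.273% and 0.709%. The ceramide synthase CERS1 is outside the list of members and was not part of this sum. SPTLC1 (44.96%) and SPTLC2 (54.5%), the partner chains of serine palmitoyltransferase, were nearly balanced, and SPTLC3, the alternative second chain, had 1.04%. ASAH1, the lysosomal acid ceramidase, held 76.3% of the summed FPKM of ASAH1, ACER1, ACER2 and ACER3, and ACER3 held 19.9%. The ceramidase ASAH2 is missing from this sum, since no row carried its name and it was not looked for under another identifier. Among lipid phosphate phosphatases PLPP2 held 56.1%, PLPP1 38.3% and PLPP3 4.18%. The sphingomyelinases were more evenly divided, with medians of 33.4% for SMPD4, 19.0% for SMPD1, 15.8% for SMPD2, 15.7% for ENPP7 and 4.67% for SMPD3, and ENPP7 ranged from 0 to 89.3% between steers.

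With GLP-2, 11 of the 40 tested members (27.5%) differed from BSA by the quasi-likelihood test of edgeR with an adjusted p (padj) of 0.05 or less, against 13.5% of all 13928 genes tested. Of the 11, 9 were upregulated (5.13% of all genes) and 2 were downregulated (8.37% of all genes). A further 12 members tended to differ (padj above 0.05 and at most 0.1), which makes 23 at padj of at most 0.1, against 26.1% of all genes. Without adjustment 28 members had p of at most 0.05, where 34.6% of all genes did. The fold change was positive for 32 of the 40 members and for 50.7% of all genes, and the median log2 fold change was 0.49 for the members and 0.0079 for all genes. The list was chosen with earlier results of these data known, so these differences from all genes are not independent of that choice. No member separated the groups completely, since the ranges of GLP-2 and BSA steers overlapped for all 40. How many of all genes separated the groups was not computed.

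**Figure D2:**
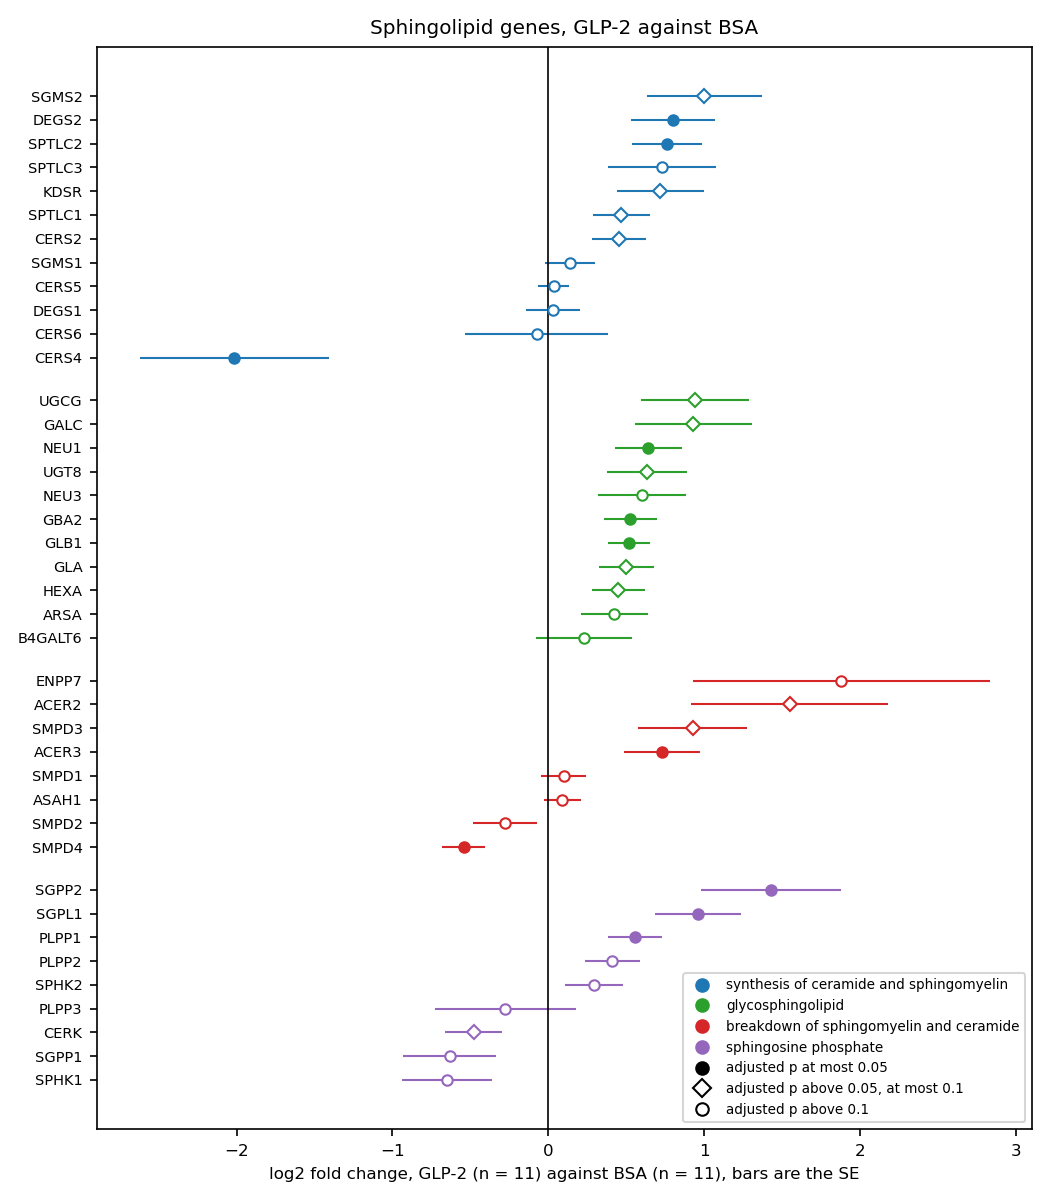
Log2 fold change between GLP-2 (n = 11) and BSA (n = 11) for the 40 tested members by arm, with bars of 1 SE. Filled circles mark the 11 members at padj of at most 0.05, diamonds the 12 tendencies and open circles the rest, and all 11 glycosphingolipid members lie right of 0.

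The calls depended on which steers and covariates entered the fit. Leaving out 1 steer at a time gave 2 to 18 called members. The count was 2 without casein + GLP-2 replicate 1 or 3, control replicate 1, 3 or 5, or GLP-2 replicate 3 or 6, and in each of these fits the 2 were GLB1 and SMPD4. It was 3 without casein replicate 3 or casein + GLP-2 replicate 2, 4 without casein replicate 1, 6 without casein + GLP-2 replicate 4, 7 without casein replicate 2, 17 without control replicate 2 and 18 without casein replicate 6. The share of all genes called moved with it, from 4.52 to 7.04% in the fits with 2 members (2 of 40). In the fits with 3 members it was 8.79% (without casein replicate 3) and 7.67%. It was 7.0% in the fit with 4, 9.42% with 6, 10.0% with 7, 25.0% with 17 and 20.6% with 18. In the fits with 2, therefore, the members were called about as often as all genes. Without the 5 BSA steers with the last columns, 0 members and 0 genes were called in edgeR, 6 members had an unadjusted p of at most 0.05, and the median log2 fold change of the members was 0.25. Without the 4 steers rich in follicle markers, 0 members and 0 genes were called, 10 members had an unadjusted p of at most 0.05, and the median was 0.31. With the enterocyte marker score as a covariate 0 members and 0 genes were called, 0 members had an unadjusted p of at most 0.05, and the median was 0.14. With the follicle score 0 members and 0 genes were called, and the other 2 values were 2 and 0.24. The share of all genes at an unadjusted p of at most 0.05 was not computed for these fits. The part that these cell markers have in the differences was not tested. Both scores come from the treated tissue and differ between the injections, and leaving out either set removes BSA steers only. These fits were therefore less able to call any gene. With the body weight block in the fit, SPTLC2, SMPD4 and SGPL1 were called (4.95% of all genes were), the other 8 had padj from 0.0509 to 0.139, and all 40 members kept their direction.

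In the synthesis arm 12 members were tested, of which SPTLC2 and DEGS2 were upregulated and CERS4 was downregulated. SPTLC2 (ENSBTAG00000020480, chr10:88689279-88784551 on the minus strand in ARS-UCD1.2) encodes a catalytic chain of serine palmitoyltransferase, the enzyme that commits serine to the pathway. It ranged from 73.8 to 199 CPM with GLP-2 (median 107) and from 37.9 to 129 CPM with BSA (median 64.6). All 11 GLP-2 steers lay above the BSA median and 4 above every BSA steer. The fold change was 1.70 (log2 0.76, SE 0.22, padj = 0.0318). The 5 BSA steers with the last columns were also the lowest 5 of all 22 for SPTLC2, with a median of 43.9 CPM against 89.3 CPM in the other 6, and without them its log2 fold change was 0.39 (padj = 0.443).

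DEGS2 (ENSBTAG00000009294, chr21:65091255-65110055, minus strand), which desaturates or hydroxylates dihydroceramide and can yield phytoceramide, ranged from 29.8 to 82.5 CPM with GLP-2 (median 43.1) and from 9.88 to 45.3 CPM with BSA (median 24.9). Every GLP-2 steer was above the BSA median, and 4 exceeded the highest BSA steer. Its fold change was 1.74 (log2 0.80, SE 0.27, padj = 0.0494). DEGS1, the main dihydroceramide desaturase, had a log2 fold change of 0.03 (SE 0.17, padj = 0.907), with a 95% interval from -0.31 to 0.37. DEGS2 made up a median of 43.3% of the FPKM of both desaturases in GLP-2 steers (range 32.9 to 60.5%) and 33.4% in BSA steers (range 10.9 to 50.5%). This share was not tested.

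CERS4 (ENSBTAG00000003434, chr7:16897413-16933305, plus strand), a ceramide synthase for long chains, was downregulated, with a fold change of 0.247 (log2 -2.02, SE 0.61, padj = 0.0347). Its level was low in both groups, from 0.0763 to 1.73 CPM with GLP-2 (median 0.780) and from 0.211 to 11.8 CPM with BSA (median 1.58). The 4 highest values, 11.8, 8.16, 5.27 and 5.26 CPM, belonged to the 4 BSA steers rich in follicle markers. Without those 4 the log2 fold change was -0.19 (padj = 0.874), and with the follicle score as a covariate it was 0.66. The other ceramide synthases tested among the members had values of 0.45 (CERS2, padj = 0.0740), 0.04 (CERS5, padj = 0.816) and -0.08 (CERS6, padj = 0.918) on the log2 scale. CERS1, a ceramide synthase outside the list of members, had -0.79 (SE 0.43, padj = 0.190) and was not called. Its level was low too, from 0.607 to 6.79 CPM with GLP-2 and from 1.15 to 11.9 CPM with BSA.

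The tendencies of the arm were all upward. They were SGMS2 (log2 1.00, SE 0.37, padj = 0.0669), which makes sphingomyelin at the plasma membrane, KDSR (log2 0.72, padj = 0.0792), which reduces the first product of the pathway, SPTLC1 (log2 0.47, padj = 0.0765) and CERS2. SGMS2 ranged from 12.1 to 38.6 CPM with GLP-2 and from 1.41 to 31.9 CPM with BSA, and all 11 GLP-2 steers were above the BSA median. SGMS1, the Golgi sphingomyelin synthase, had a log2 fold change of 0.14 (padj = 0.552). SGMS2 held a median of 43.5% of the synthase FPKM with GLP-2 (range 33.3 to 50.9%) and 29.7% with BSA (range 4.36 to 45.7%). This share was not tested. SPTLC3, at 0.73 on the log2 scale, missed both limits (padj = 0.138). For SPTLC1 and KDSR too the 5 steers with the last columns were the lowest 5 of the 22.

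**Figure D3:**
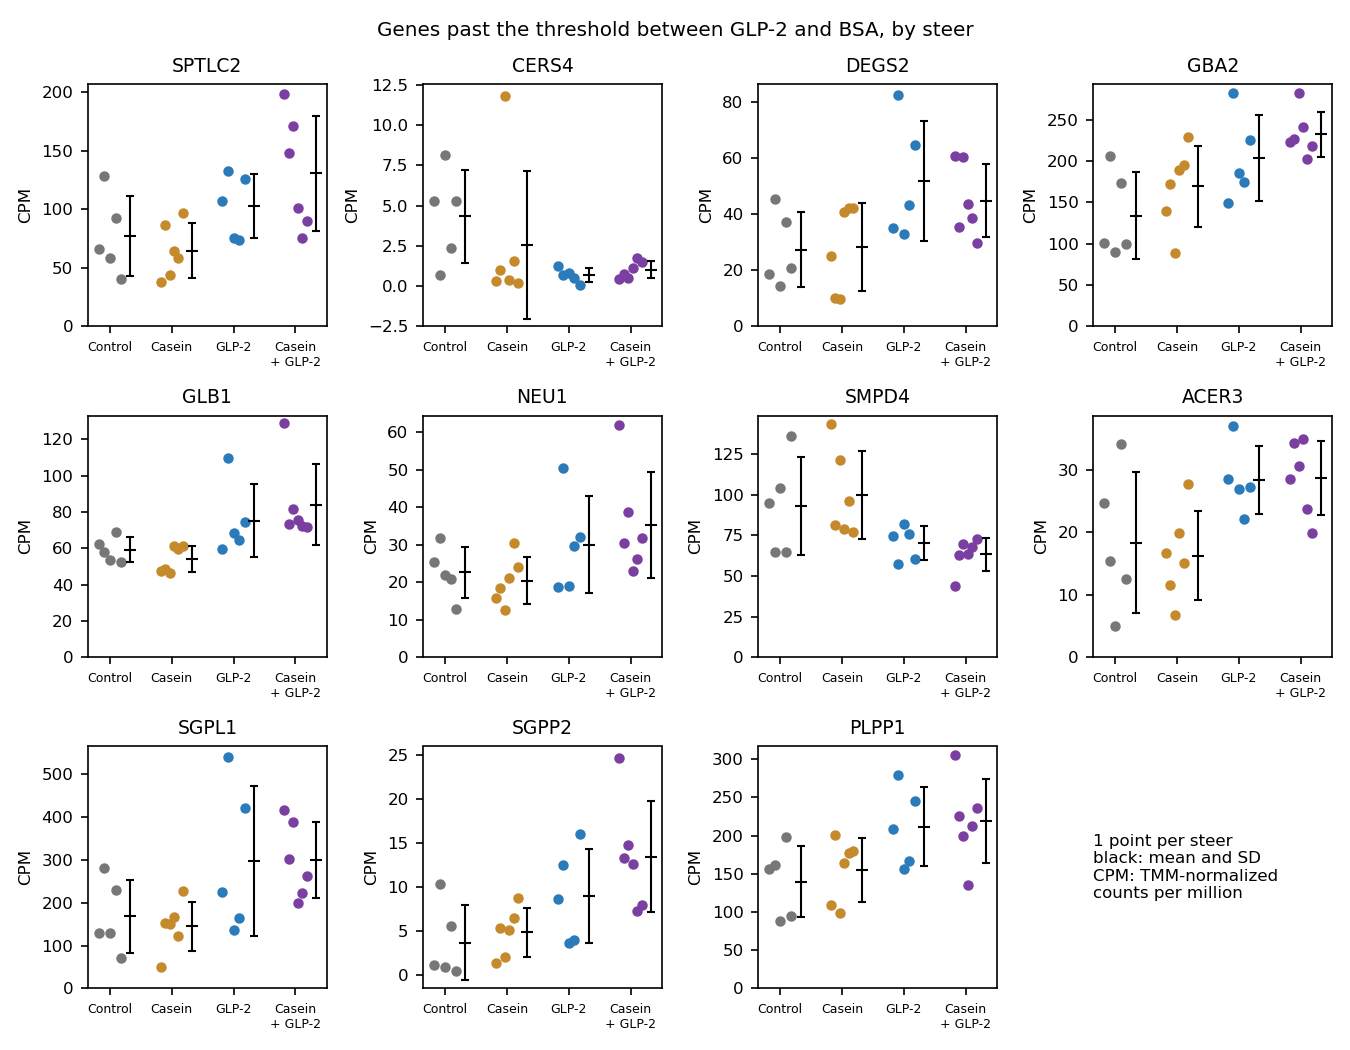
CPM of the 11 members at padj of at most 0.05 between GLP-2 and BSA, 1 point per steer in the 4 treatments, with the mean and SD in black. GLP-2 steers sit higher for 9 genes and lower for CERS4 and SMPD4, the ranges of the groups overlap in each panel, and the CERS4 values above 5 CPM are all in BSA steers.

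In the glycosphingolipid arm all 11 tested members had a positive fold change with GLP-2, with GLB1, GBA2 and NEU1 past the threshold and none lower. GLB1 (ENSBTAG00000015254, chr22:7340652-7444669, minus strand), the lysosomal beta-galactosidase that trims gangliosides, ranged from 59.5 to 129 CPM with GLP-2 (median 73.4) and from 46.3 to 69.2 CPM with BSA (median 58.1). All 11 GLP-2 steers were above the BSA median and 8 were above every BSA steer, the most of any member. Its fold change was 1.43 (log2 0.52, SE 0.13, padj = 0.0239), and GLB1 was called in all 22 fits that left out 1 steer, in which its log2 fold change ranged from 0.40 to 0.55. With the body weight block GLB1 was not called (log2 0.50, padj = 0.0509), nor without the 5 steers with the last columns (log2 0.39, padj = 0.327).

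GBA2 (ENSBTAG00000011431, chr8:59901585-59921540, minus strand) encodes the glucosylceramidase outside the lysosome. It ranged from 149 to 283 CPM with GLP-2 (median 223) and from 89.3 to 230 CPM with BSA (median 173), with a fold change of 1.44 (log2 0.53, SE 0.17, padj = 0.0455). Of the 11 GLP-2 steers, 10 exceeded the BSA median. NEU1 (ENSBTAG00000005674, chr23:27494530-27498491, plus strand), the lysosomal sialidase, ranged from 18.8 to 62.0 CPM with GLP-2 (median 30.4) and from 12.7 to 31.7 CPM with BSA (median 21.2). Its fold change was 1.56 (log2 0.64, SE 0.21, padj = 0.0469), and 2 GLP-2 steers lay below the BSA median.

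Both enzymes that add the first sugar to ceramide tended to be higher. UGCG, which makes glucosylceramide, had a log2 fold change of 0.94 (SE 0.35, padj = 0.0669) and ranged from 20.2 to 108 CPM with GLP-2 and from 10.7 to 97.0 CPM with BSA. UGT8, which makes galactosylceramide, had 0.63 (SE 0.26, padj = 0.0897). Lysosomal hydrolases tended upward as well, namely GALC, the galactosylceramidase (log2 0.93, padj = 0.0879), GLA, the alpha-galactosidase (log2 0.50, padj = 0.0582), and HEXA, the alpha chain of beta-hexosaminidase (log2 0.45, padj = 0.0721). NEU3, a plasma membrane sialidase (log2 0.60, padj = 0.133), ARSA, which removes sulfate from sulfatide (log2 0.42, padj = 0.166), and B4GALT6, a lactosylceramide synthase (log2 0.23, padj = 0.608), passed neither limit.

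In the breakdown arm 8 members were tested, of which SMPD4 was downregulated and ACER3 was upregulated. SMPD4 (ENSBTAG00000002130, chr17:72403730-72419364, plus strand), a neutral sphingomyelinase of internal membranes, ranged from 43.98 to 81.8 CPM with GLP-2 (median 67.9) and from 64.5 to 144 CPM with BSA (median 95.1). All 11 GLP-2 steers were below the BSA median and 5 were below every BSA steer. The fold change was 0.686 (log2 -0.54, SE 0.14, padj = 0.0235), the smallest padj of any member, and SMPD4 was called in all 22 fits that left out 1 steer. The 5 BSA steers with the last columns were the highest 5 of the 22 (96.1 to 144 CPM), the other 6 BSA steers had a median of 78.0 CPM, and without the 5 steers the log2 fold change was -0.24 (padj = 0.391).

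ACER3 (ENSBTAG00000017218, chr15:56246885-56403904, plus strand), an alkaline ceramidase that releases sphingosine, ranged from 19.9 to 37.0 CPM with GLP-2 (median 28.5) and from 4.94 to 34.2 CPM with BSA (median 15.4). Every GLP-2 steer was above the BSA median. This is a fold change of 1.66 (log2 0.73, SE 0.24, padj = 0.0478). ACER2, the Golgi ceramidase, tended upward (log2 1.55, SE 0.63, padj = 0.0902) at a level of at most 6.53 CPM, and SMPD3, another neutral sphingomyelinase, did too (log2 0.93, SE 0.35, padj = 0.0721). The lysosomal enzymes had values near 0, with log2 fold changes of 0.09 for ASAH1 (95% interval -0.14 to 0.32, padj = 0.604) and 0.10 for SMPD1, the acid sphingomyelinase (95% interval -0.19 to 0.38, padj = 0.646). SMPD2 had -0.28 (padj = 0.338).

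ENPP7, the brush border sphingomyelinase that digests dietary sphingomyelin, had the largest positive fold change of the members (log2 1.88) but also the largest error (SE 0.95, padj = 0.161). It ranged from 4.81 to 512 CPM with GLP-2 (median 21.1) and from 0 to 108 CPM with BSA (median 13.6). Its 3 highest GLP-2 values, 512, 214 and 74.6 CPM, were all in water-infused steers, and casein replicate 1 and control replicate 5 had no count.

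In the sphingosine phosphate arm 9 members were tested, of which SGPL1, SGPP2 and PLPP1 were upregulated. SGPL1 (ENSBTAG00000009984, chr28:26964983-27026784, plus strand), the lyase that cleaves sphingosine phosphate irreversibly, ranged from 136 to 541 CPM with GLP-2 (median 264) and from 48.9 to 281 CPM with BSA (median 151). Of the 11 GLP-2 steers, 10 were above the BSA median and 5 above every BSA steer. The fold change was 1.94 (log2 0.96, SE 0.28, padj = 0.0303). With the enterocyte score as a covariate its log2 fold change was 0.21.

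SGPP2 (ENSBTAG00000046649, chr2:110589561-110734612, plus strand), a phosphatase that returns sphingosine phosphate to sphingosine, had the largest fold change of the upregulated members, 2.69 (log2 1.43, SE 0.45, padj = 0.0392). It ranged from 3.70 to 24.7 CPM with GLP-2 (median 12.5) and from 0.465 to 10.4 CPM with BSA (median 5.17). Of the 11 GLP-2 steers, 6 exceeded every BSA steer, while 2 lay below the BSA median. Its relative SGPP1 had a log2 fold change of -0.63 (SE 0.30, padj = 0.135). SGPP2 made up a median of 67.5% of the FPKM of the pair with GLP-2 (range 40.3 to 81.9%) and 40.0% with BSA (range 5.24 to 70.5%). This share was not tested.

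PLPP1 (ENSBTAG00000010526, chr20:23636355-23738916, plus strand) ranged from 135 to 306 CPM with GLP-2 (median 212) and from 88.3 to 201 CPM with BSA (median 161). Of the GLP-2 steers, 7 were above every BSA steer and 2 below the BSA median. PLPP1 thus had a fold change of 1.47 (log2 0.55, SE 0.17, padj = 0.0388). PLPP2 had a log2 fold change of 0.41 (padj = 0.107) and PLPP3 of -0.28 (padj = 0.683).

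No kinase was called. CERK, which phosphorylates ceramide, tended to be lower (log2 -0.48, SE 0.18, padj = 0.0729), with 16.9 to 47.2 CPM with GLP-2 and 29.4 to 78.7 CPM with BSA, and 5 GLP-2 steers lay below every BSA steer. SPHK1, the cytoplasmic sphingosine kinase, had a log2 fold change of -0.65 (SE 0.29, padj = 0.116), and 6 GLP-2 steers lay below every BSA steer while 1 lay above them all. SPHK2 had 0.29 (padj = 0.268). SPHK1 made up a median of 16.1% of the sphingosine kinase FPKM with GLP-2 (range 6.03 to 33.9%) and 34.7% with BSA (range 13.3 to 48.0%). This share was not tested.

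Spread between steers was wide in both groups. The coefficient of variation of CPM had a median over the 40 members of 32.9% in GLP-2 steers and 39.8% in BSA steers, and it was larger in BSA steers for 29 members. The same comparison was not made over all genes, and the cause of this difference was not tested. Casein + GLP-2 replicate 1 had the highest value of all 22 steers for 14 members and GLP-2 replicate 3 for 9. At the other end, casein replicate 3 had the lowest for 10, casein replicate 1 for 8 and control replicate 5 for 6, and the 5 steers with the last columns together had the lowest for 28 of the 40 members. Their median was below that of the other 6 BSA steers for 28 members. The median of the GLP-2 steers was above that of those 6 for 30 members. Both counts include all 9 upregulated members, but those were called on these same values, so this is no separate result. The share of all genes was not computed for these counts.

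**Figure D4:**
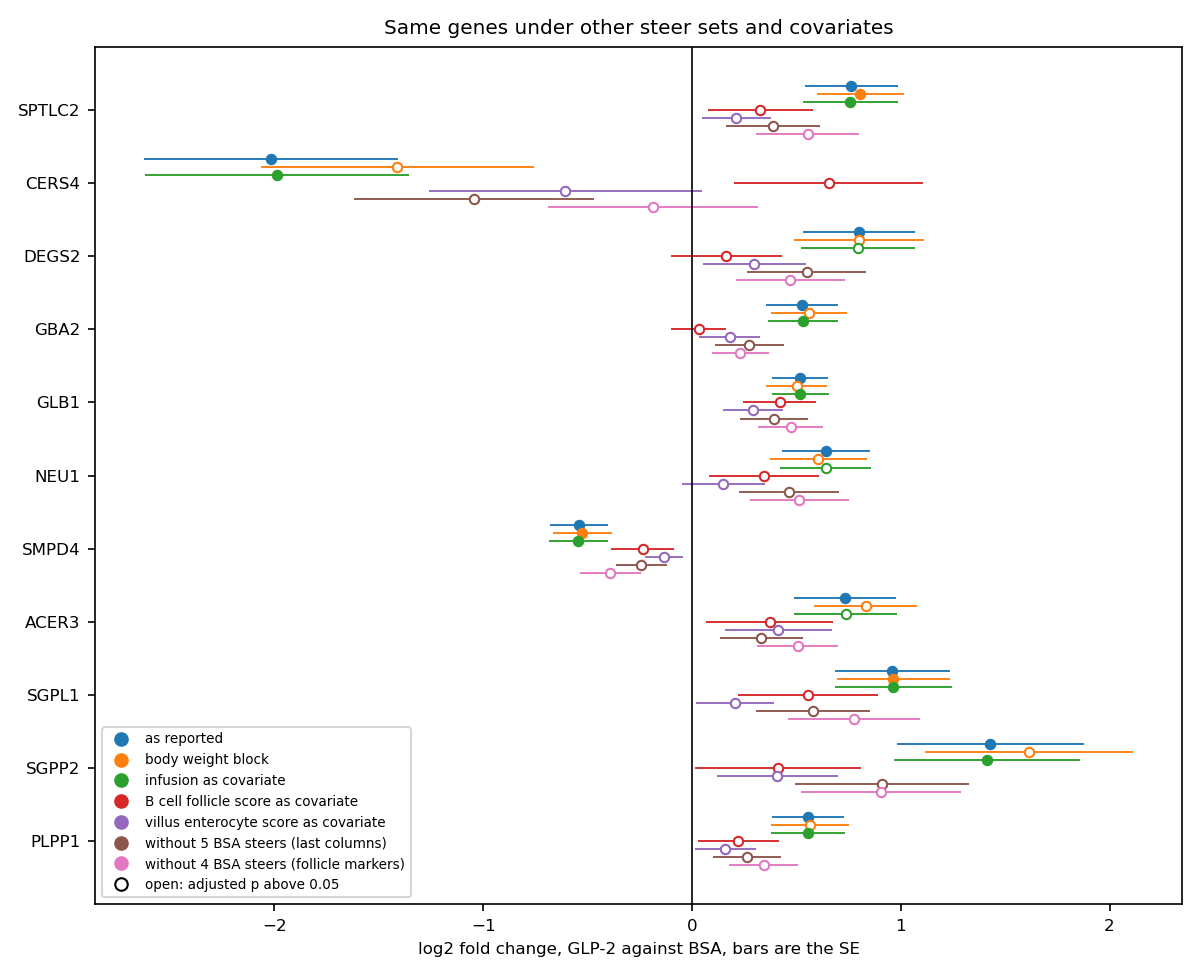
Log2 fold change between GLP-2 and BSA, with bars of 1 SE, for the 11 called members as reported and in 6 other fits, with filled points at padj of at most 0.05. The values with the body weight block or the infusion as a covariate lie near those reported, except CERS4 with the block (-1.41), the other 4 lie closer to 0, and CERS4 alone crosses 0, with the follicle score.

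No difference with casein was detectable in these genes. Between casein and water, 0 of the 40 members and 0% of 14096 genes were called in edgeR, and 1 member, ENPP7, had an unadjusted p of at most 0.05, against 3.36% of all genes. ENPP7 ranged from 0 to 108 CPM with casein (median 14.8) and from 0 to 512 CPM with water (median 16.8), with a log2 fold change of -1.96 (SE 0.94, padj = 0.994). The next smallest p-values were those of NEU3 (log2 0.49, SE 0.29, padj = 0.994) and GALC (log2 0.59, SE 0.40, padj = 0.994). For 29 members the 95% interval of the log2 fold change lay within 1 of 0, while for the other 11 the interval reached beyond that. Between casein and control 0 members were called and 0 had an unadjusted p of at most 0.05 (5.66% of all 15086 genes). Among GLP-2 steers, those with and without casein, the values were 0 and 2 (2.64% of all genes), the 2 being ENPP7 (log2 -3.03, SE 1.27, padj = 0.995) and GALC (log2 1.07, SE 0.50, padj = 0.995). GALC ranged from 18.6 to 76.2 CPM with casein + GLP-2 and from 10.9 to 26.6 CPM with GLP-2.

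Within each infusion GLP-2 gave no call after adjustment. With water, between GLP-2 and control, 0 members were called and 8 had an unadjusted p of at most 0.05 (13.9% of all genes). The smallest p was that of CERS4, from 0.0763 to 1.28 CPM with GLP-2 and from 0.706 to 8.16 CPM in controls (log2 -2.69, SE 0.94, padj = 0.236). With casein, between casein + GLP-2 and casein, 0 were called and 15 had an unadjusted p of at most 0.05 (24.1% of all genes). The smallest was that of GLB1, from 71.9 to 129 CPM with casein + GLP-2 and from 46.3 to 61.1 CPM with casein (log2 0.64, SE 0.17, padj = 0.118). The ranges of GLB1 in these 2 treatments did not overlap, but it was picked by its p. The share of all genes without overlap was not computed. Next came SPTLC2 (log2 1.02, SE 0.30, padj = 0.118) and SMPD4 (log2 -0.65, SE 0.20, padj = 0.118).

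The fold change with GLP-2 was positive under both infusions for 26 members and negative under both for 6. The share of all genes with the same sign under both was not computed. All 11 members called over the pooled steers had the same sign under both, but they were called on these same values, so this is no separate result. The interaction of casein and GLP-2 was called for 0 of the 40 members and for 0% of 15086 genes, and 2 members had an unadjusted p of at most 0.05 (4.28% of all genes). The first was DEGS1, with a median of 48.7 CPM with GLP-2 and 57.1 CPM in controls, and of 63.2 CPM with casein + GLP-2 and 47.5 CPM with casein (interaction log2 0.76, SE 0.30, padj = 0.996). The second was ARSA, whose log2 fold change with GLP-2 was -0.05 with water and 0.82 with casein (interaction 0.87, SE 0.39, padj = 0.996). ENPP7 followed, with 3.05 with water and -0.44 with casein (interaction -3.49, SE 1.76, padj = 0.996). Intervals of the interaction lay within 1 log2 unit of 0 for 10 members, so most differences between the infusions were not resolved with 5 or 6 steers per treatment.

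**Figure D5:**
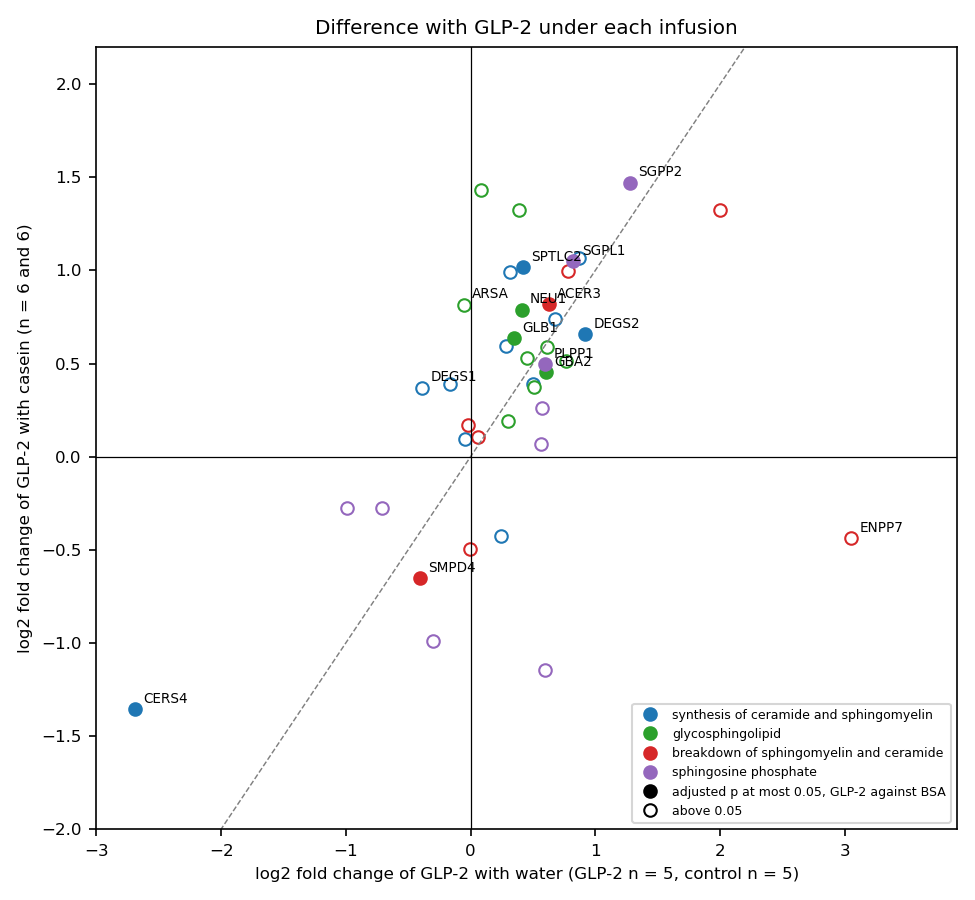
Log2 fold change with GLP-2 among water-infused steers (horizontal axis) and among casein-infused steers (vertical axis) for the 40 tested members, with the line of equality dashed. Filled points are the 11 members called over the pooled steers. All are higher on both axes or lower on both, which follows largely from that call on the same steers. ENPP7 lies far from the line at 3.05 and -0.44.

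Beyond the 44, a list of 36 further genes of the pathway, also chosen with earlier results of these data known, was read in the same fits. Of these, 35 had a row in the table (CERT1 under its older symbol COL4A3BP, which is also listed) and 30 were tested between GLP-2 and BSA, of which 7 were called (23.3%, 3 higher and 4 lower) and 7 more tended to differ, where 13.5% of all genes were called and 26.1% had padj of at most 0.1. Of the 4 lower genes, S1PR2 and S1PR3 are receptors. S1PR2, which binds sphingosine phosphate, ranged from 4.04 to 12.6 CPM with GLP-2 and from 7.18 to 116 CPM with BSA (log2 -1.87, SE 0.40, padj = 0.0189). S1PR3, which binds it too, had a log2 fold change of -1.47 (SE 0.35, padj = 0.0218), and NSMAF, an adaptor between a tumour necrosis factor receptor and neutral sphingomyelinase, had -0.92 (SE 0.24, padj = 0.0242). A4GALT, which makes globotriaosylceramide, had -1.48 (SE 0.49, padj = 0.0462). Among enzymes, B4GALT5, the main lactosylceramide synthase, was higher, from 55.8 to 191 CPM with GLP-2 and from 17.3 to 110 CPM with BSA (log2 1.14, SE 0.31, padj = 0.0252). GBA3, a cytosolic glucosidase, had 1.03 (SE 0.31, padj = 0.0361) and B4GALNT1, a ganglioside synthase, 0.65 (SE 0.19, padj = 0.0342). Without the 5 BSA steers with the last columns, or without the 4 rich in follicle markers, 0 of these genes were called in edgeR, as 0 of all genes were. The 7 tendencies were ORMDL3, FA2H, COL4A3BP, SMPDL3A, SMPDL3B and ALDH3A2, all upward, and S1PR1, downward. For casein against water and for the interaction, 0 of these genes were called in edgeR, and 2 in each had an unadjusted p of at most 0.05 (3.36% and 4.28% of all genes).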

How the data were processed

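Jejunal mucosa of 22 steers was used, and 1 further GLP-2 steer was not analysed here. The authors aligned strand-specific, paired reads to ARS-UCD1.2 with HISAT2 (version 2.0.5), counted them per gene with featureCounts (version 1.5.0-p3) and deposited the counts as whole numbers, not normalized. The strand setting of the counting is not given in the sources used here. The authors also deposited FPKM values, which adjust for gene length and library size. The submitters' processing notes also name StringTie (1.3.3b) and DESeq2 (1.20). Names, coordinates and identifiers are those of the deposited tables.

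Here R 4.3.3 with edgeR 4.0.16 was run on the counts: filterByExpr (minimum count 10), TMM, quasi-likelihood F-test, and Benjamini-Hochberg adjustment over all genes tested, where a gene at 0.05 or less was called and one up to 0.1 was a tendency. Each main effect was fitted on pooled steers without covariates, and the 4 treatments in 1 model for pairwise contrasts and the interaction. The SE is the log2 fold change divided by the root of F, and 95% intervals are 1.96 SE. Log2 CPM used a prior count of 2. Alternatives were DESeq2 size factors, no filter, the block, DESeq2 (1.42.0) Wald tests, limma (3.58.1) on log2(FPKM + 1) or log2(FPKM + 0.1), covariates, and leaving out steers. The members and lists, and both sets of BSA steers left out, were chosen with earlier results of these data known. All members are named. Full values are given for those past the threshold, the strongest of each arm and the 3 with the smallest p for casein and the interaction.

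The block number is in the labels and stands for a body weight stratum within which treatments were assigned. After removing treatment means, 30 pairs of steers of 1 block had a mean correlation of 0.0331 (range -0.464 to 0.387) and 151 other pairs of -0.00641. No steers of a treatment had identical counts. On simulated data, 56 of 93 genes changed by 1 log2 unit and 78 of 89 changed by 2 were called for GLP-2 against BSA, and 6 of 14010 genes were called falsely. For the interaction it was 3 of 97 and 43 of 98, with 2 false calls among 14900. In the simulation each gene was drawn independently, without differences between steers that many genes share. The rates of calls and false calls therefore need not hold for the real counts. Promoter and protein sequences were not used here.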

Additional observations from a re-analysis of the deposited data

Results flagged for a closer look

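Among the values of the 40 tested members in each of the 4 treatments (160 sets of 5 or 6 steers), 13 values on the log2 CPM scale stood far enough from the rest of their treatment to exceed Dixon's 95% limit. Chance marks about 1 set in 20. They fell on 11 members, and 8 lay below the other steers. Casein + GLP-2 replicate 1 was above the others for GLB1 (7.01 against 6.35 in the nearest steer), HEXA (7.09 against 6.60) and DEGS1 (6.48 against 6.02), and below them for SMPD4 (5.46 against 5.98). Casein replicate 3 was below for SPHK2 (5.63 against 7.24) and PLPP2 (6.25 against 7.52), and casein replicate 6 for CERK (4.89 against 5.34). Casein replicate 2 had no count of CERS6 or ACER2, which gives -2.83 for both. Control replicate 2 was far above for ACER2 (1.17 against -1.78) and far below for PLPP3 (1.52 against 5.11). GLP-2 replicate 1 was above for NEU3 (3.72 against 2.93) and below for PLPP2 (7.31).

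GLB1 and SMPD4, on which casein + GLP-2 replicate 1 stands out, were still called without that steer.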

How the results depend on the processing

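Of 33 alternatives to the count of 11 members called between GLP-2 and BSA, 12 stayed within 1.5 times. The count was 5 without a filter on low counts (of 42 members tested, with 6.93% of all genes called), 3 with the replicate block (SPTLC2, SMPD4 and SGPL1), 17 with the DESeq2 Wald test (21.5% of all genes), and 0 with the B cell follicle score or the villus enterocyte score as a covariate, without the 5 steers with the last columns and without the 4 steers rich in follicle markers. The last pair were chosen after the data had been seen. In each fit with 0 members called, 0% of all genes were called too. Leaving out 1 steer gave 2 to 18, in fits that called 4.52 to 25.0% of all genes. The block number did not pair the steers clearly, since 13 of 30 pairs of a block had a correlation over 0.1, as had 55 of 151 pairs of other blocks and treatments. Treatments were assigned within blocks, however, so the blocked fit follows the design. It called 689 genes (4.95%) in all where 1881 were called without it. For GLP-2 against control the count was 0 to 1 when 1 steer was left out (ACER2, without control replicate 2, with 2.79% of all genes). For casein + GLP-2 against casein it was 5 with the DESeq2 Wald test (5.91% of all genes). For casein against water, the interaction, casein against control and casein + GLP-2 against GLP-2 it was 0 in every alternative.

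Some fold changes changed sign. With the follicle score the log2 values were 0.66 for CERS4, 0.16 for CERS6, -0.093 for SMPD1, -0.24 for SPHK2, 0.45 for SGPP1, -0.024 for PLPP2 and 0.26 for PLPP3. With the enterocyte score they were -0.033 for CERS5, 0.29 for CERS6, -0.086 for DEGS1, -0.039 for SGMS1, -0.020 for ARSA, -0.080 for SMPD1, 0.14 for SMPD2, -0.47 for ENPP7, -0.016 for ASAH1 and 0.57 for PLPP3. Without the 5 steers with the last columns they were -0.016 for CERS5, 0.51 for CERS6, -0.058 for DEGS1, -0.044 for SMPD1, -0.051 for ASAH1 and 0.56 for PLPP3. Without the 4 steers rich in follicle markers they were -0.038 for SPHK2 and 0.12 for SGPP1, and on log2(FPKM + 0.1) CERS6 had 0.12. Leaving out 1 steer gave -0.025 to 0.059 for CERS5, -0.24 to 0.031 for CERS6, -0.079 to 0.12 for DEGS1 and -0.0090 to 0.13 for SMPD1. The cause of these changes was not tested. Of all 1320 fold changes of single members under the alternatives, 37 changed sign, 170 lost a call, 38 gained one and 1075 did neither. Only the 11 called members could lose a call, so the 170 are not a share of 1320. Over the 22 fits that left out 1 steer, these members were called from 7 times (NEU1 and ACER3) to 22 times (GLB1 and SMPD4). Members near 1 CPM or below, such as CERS4, CERS6 and ACER2, rest on few counts per steer.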
